A study of Rattus norvegicus with 60 samples.

Results

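CA1 tissue taken 24 h after threat training was compared with CA1 tissue taken 24 h after place training by RNA sequencing. The comparison rests on 6 threat 24 h and 5 place 24 h libraries, 11 of the 60 samples in the series. It covers 13153 of the 22865 genes in the deposited table, those with at least 1 FPKM (fragments mapped to a gene, scaled to its transcript length and to the mapped fragments of the library) in at least 5 of the 34 RNA libraries. Values from 8 threat 1 h, 6 place 1 h and 9 naive RNA libraries, and from DNA captured for methylation at 24 h, are set beside it.

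All samples were labelled as the CA1 area of Sprague-Dawley rats, an outbred laboratory strain, aged 90 to 120 d. No label gives a genotype, drug or transgene in any group. Threat and place name the 2 arms of contextual threat recognition training, and what the animals of each arm met is not described further. Naive RNA libraries carry no time in the labels. Whether a library is 1 animal or pooled tissue is not stated, so each p-value reflects variation among the libraries fitted together, and that variation could be technical.

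CA1 is the output field of the hippocampus, and its pyramidal cells are needed for memory of a context in which something harmful happened. Neuronal firing induces immediate early genes such as Fos and Arc within minutes, and their mRNA usually decays within hours. Glucocorticoids released by a stressor switch on another set, with Sgk1 and Fkbp5 among its members. Memory at later times has been linked to slower changes, among them DNA methylation set by enzymes such as Dnmt3a.

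The 11 libraries were alike in depth and breadth. Relative depth, read from the steps of low FPKM values, was 0.893 to 1.09 in threat 24 h and 0.898 to 1.11 in place 24 h libraries, as multiples of the median of all RNA libraries. Between 12472 and 12640 genes reached 1 FPKM in threat 24 h libraries, and 12515 to 12693 in place 24 h libraries. Wfs1, a defining CA1 marker, stood at 76.2 to 147 FPKM in threat 24 h and 89.9 to 156 FPKM in place 24 h libraries. The CA1 markers Fibcd1 and Man1a1 were above 1 FPKM in every library, and markers of other cells were present too. Of 4 defining dentate granule markers, Tdo2 was listed at 0 in all 11 libraries and Dsp reached 0.126 FPKM at most. The other pair was detected: C1ql2 stood at 3.69 to 28.8 FPKM in threat 24 h and 5.59 to 13.1 FPKM in place 24 h, and Prox1 at 1.499 to 5.60 FPKM in threat 24 h and 1.23 to 2.92 FPKM in place 24 h.

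No gene was called different between threat 24 h and place 24 h CA1. In limma, 0 of 13153 genes passed a Benjamini-Hochberg adjusted p of 0.05 (0%), and the lowest adjusted p was 0.9998. At an unadjusted p under 0.05 there were 153 genes higher (1.16%) and 228 lower (1.73%) in threat 24 h, 2.9% of all genes together. A threshold of 0.05 passes about 5% of genes when none differs. The fit took each gene's spread from all RNA groups, and the share depended on that choice. Fitted to the 2 compared groups only, 614 genes had an unadjusted limma p under 0.05, 0 were called and the lowest adjusted p was 0.9867. With naive libraries 5 to 9 as a group of their own, 484 genes had one and 0 were called. The 6 threat values and 5 place values did not overlap for 54 genes (0.411%), with threat higher in 25 (0.19%) and lower in 29 (0.22%).

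The comparison was precise enough to bound most differences. The 95% confidence interval of the fold lay within 1.5-fold either way for 12831 genes (97.6%) and within 2-fold for 13123 (99.8%). These bounds are on the log2(FPKM + 1) scale, which understates folds at low FPKM, most of all near or under 1 FPKM. The difference was under 0.1 on that scale for 81.0% of genes and above 0.5 for 9. The median standard error was 0.08. The same fit called 568 genes higher (4.32%) and 759 lower (5.77%) in threat 24 h than in naive CA1, 10.1% together, and 196 higher (1.49%) and 468 lower (3.56%) in place 24 h than in naive CA1, 5.05% together. Those counts depended on which naive libraries were used: against naive libraries 1 to 4 they were 2051 and 1922 for threat 24 h and 1622 and 1587 for place 24 h, and against naive libraries 5 to 9 they were 10 and 57 for threat 24 h and 2 and 8 for place 24 h.

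**Figure D1:**
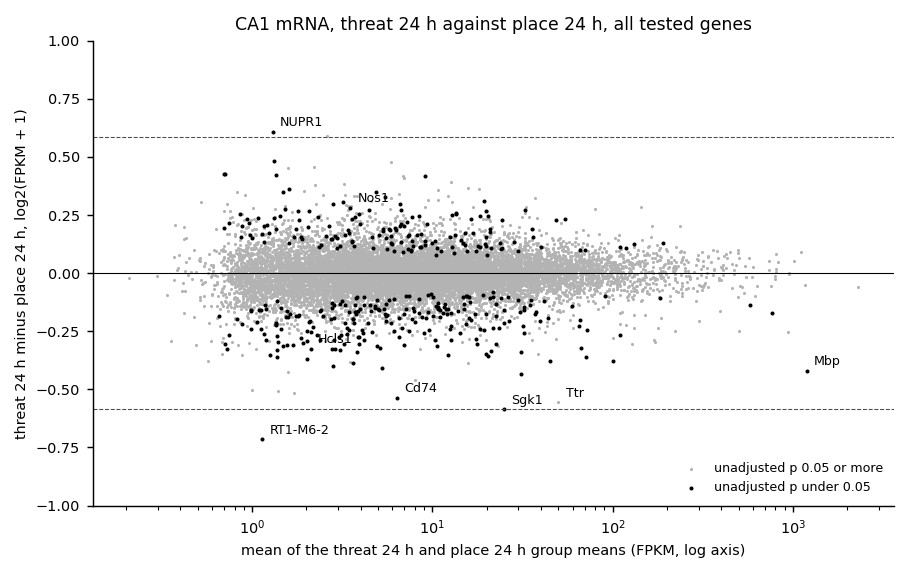
Difference between threat 24 h and place 24 h group means on the log2(FPKM + 1) scale (vertical axis) against the mean of both group means in FPKM (horizontal log axis), 1 point per gene for 13153 genes. Dashed lines mark 1.5-fold either way, black points have an unadjusted limma p under 0.05, and the cloud narrows around 0 with few points near or past the lines.

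The 9 genes that differed by more than 0.5 were mixed in kind, and 4 of them had an unadjusted limma p under 0.05 without passing the adjusted threshold; they were picked after their values were seen. Sgk1, a serum- and glucocorticoid-regulated kinase, is described below. RT1-M6-2, a non-classical MHC class I gene, averaged 0.642 ± 0.604 FPKM in threat 24 h and 1.64 ± 0.610 FPKM in place 24 h (SD, n = 6 and 5). Cd74, the invariant chain of MHC class II, averaged 5.08 ± 1.73 FPKM in threat 24 h and 7.67 ± 2.15 FPKM in place 24 h. NUPR1, a stress-induced nuclear protein, averaged 1.78 ± 0.701 FPKM in threat 24 h and 0.835 ± 0.583 FPKM in place 24 h. RT1-M6-2 belongs to a multigene family, so reads may be split between near-identical copies. The other 5 were Zic1, Cxcr1, Itgbl1, Clic6 and Ttr, with standard errors of 0.31 to 1.4.

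Among genes higher in threat 24 h, the 10 of lowest p were Dusp12, RGD1305158, ELOVL6, Samhd1, Ppcs, Nos1, Hyal3, Mettl1, Metrnl and Dguok, and none passed the adjusted threshold. Nos1, the neuronal nitric oxide synthase (chromosome 12, 46049288 to 46209569 in rn5, the build read from the positions themselves, minus strand), had a lowest, median and highest value of 3.31, 3.86 and 5.21 FPKM in threat 24 h, against 2.87, 2.71, 3.27, 3.20 and 3.19 FPKM in place 24 h. Every threat value lay above every place value, with 3.31 FPKM as the lowest threat value and 3.27 FPKM as the highest place value. Its difference was 0.28 ± 0.09 (SE; limma adjusted p = 0.9998). Nos1 was also compared with all 9 naive libraries, which are the same for both arms. It differed by 0.30 in threat 24 h (limma adjusted p = 0.0148) and by 0.02 in place 24 h (adjusted p = 0.926). Nos1 was picked for its threat against place difference, so a gap between these values follows from that choice. Counts of genes called against naive depended on which naive libraries were used, and Nos1 values against each set are not given here.

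Dusp12, an atypical dual-specificity phosphatase (chromosome 13, 93870680 to 93879772), had 3.56, 3.81 and 4.41 FPKM as lowest, median and highest in threat 24 h, against 3.44, 3.16, 2.75, 3.28 and 3.41 FPKM in place 24 h. The groups did not overlap and its difference was 0.23 ± 0.06 (SE; limma adjusted p = 0.9998). Samhd1, which hydrolyses deoxynucleotide triphosphates, averaged 2.61 ± 0.178 FPKM in threat 24 h and 2.06 ± 0.259 FPKM in place 24 h (SD, n = 6 and 5). Dguok, the mitochondrial deoxyguanosine kinase, averaged 7.94 ± 0.670 FPKM in threat 24 h and 6.95 ± 0.0570 FPKM in place 24 h. ELOVL6, a fatty acid elongase, averaged 3.63 ± 0.437 FPKM in threat 24 h and 2.76 ± 0.483 FPKM in place 24 h.

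Among genes lower in threat 24 h, the 10 of lowest p were Zbtb8os-ps1, Hcls1, Bag3, Fam82b, Haus2, Arhgdib, Wdr74, Hmox1, Rnf43 and Desi1, again with none past the adjusted threshold. Hcls1 and Arhgdib are known mainly from haematopoietic cells, and microglia express both. Hcls1, an actin-binding adaptor (chromosome 11, 69828261 to 69850286), had 1.54, 1.70 and 2.08 FPKM as lowest, median and highest in threat 24 h, against 2.32, 2.73, 2.37, 2.29 and 2.59 FPKM in place 24 h. All threat values were below all place values, and the difference was -0.33 ± 0.08 (SE; limma adjusted p = 0.9998).

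Bag3 and Hmox1 respond to protein and oxidative stress. Bag3, a co-chaperone of Hsp70 (chromosome 1, 206989244 to 207013176), had 3.22, 4.43 and 4.82 FPKM as lowest, median and highest in threat 24 h, against 5.52, 6.37, 5.62, 4.46 and 5.89 FPKM in place 24 h. Place library 4 overlapped the threat values. Hmox1, haem oxygenase 1, averaged 1.62 ± 0.307 FPKM in threat 24 h and 2.23 ± 0.388 FPKM in place 24 h (SD, n = 6 and 5), also with overlap. Arhgdib, a GDP dissociation inhibitor of small GTPases, averaged 6.16 ± 0.540 FPKM in threat 24 h and 7.42 ± 0.640 FPKM in place 24 h. Zbtb8os-ps1, which had the lowest p of all genes (0.000143 in limma), averaged 9.25 ± 1.07 FPKM in threat 24 h and 11.5 ± 0.535 FPKM in place 24 h; as a pseudogene it may share reads with its parent gene. The symbol Haus2 is carried by more than 1 row of the table, so its values are uncertain.

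**Figure D2:**
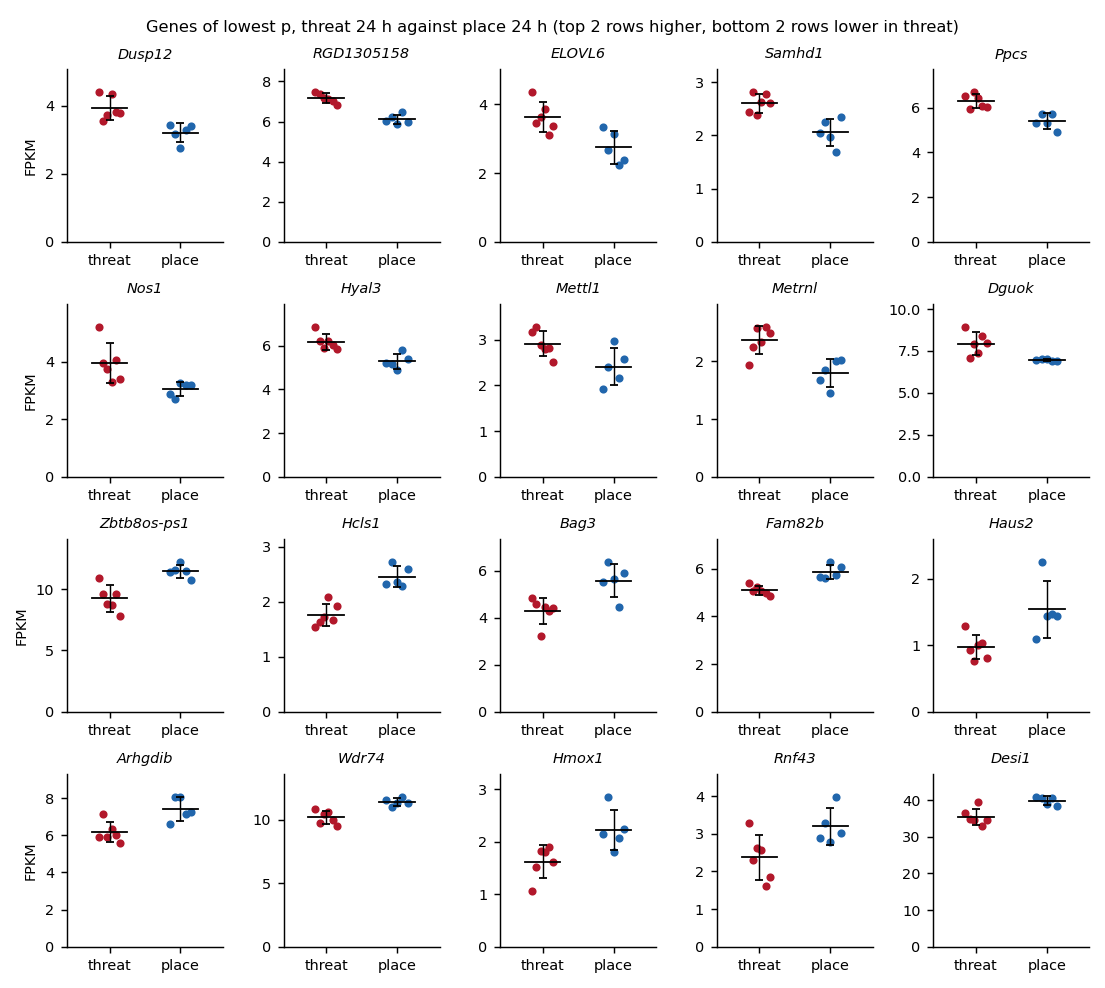
FPKM per library (vertical axis, from 0) of the 20 genes of lowest p, threat 24 h (red, n = 6) left of place 24 h (blue, n = 5), with the mean and SD as bars. The 2 groups do not overlap for 10 of these genes, among them Dusp12, Nos1, Hcls1 and Wdr74, beside 54 of all 13153 genes (0.411%). The 20 genes were picked for low p in these same libraries, which favours such separation. No difference is larger than 1.28-fold on the log2(FPKM + 1) scale.

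Immediate early genes gave no call at 24 h, and several of them varied widely between libraries of the same group. Of 20 immediate early transcription factors tested (22 in the list), 0 were called, 2 had an unadjusted limma p under 0.05, both higher, and 14 had a higher mean in threat 24 h. Over all genes 6426 of 13153 had a higher mean. The list's median difference was 0.09, against -0.002 for all genes. It was 0.01 without threat library 3, and over 1.5 times larger without threat library 5, threat library 6 or place library 4, the last giving 0.165. Fos, an AP-1 factor (chromosome 6, 116249742 to 116252608), had 1.00, 3.80 and 9.68 FPKM as lowest, median and highest in threat 24 h, against 2.40, 1.70, 2.62, 6.90 and 2.92 FPKM in place 24 h. The threat values enclosed the place values, and the difference of 0.18 ± 0.37 (SE) turned to -0.06 without threat library 3.

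The 2 members of lowest p were other AP-1 subunits. Jun had 21.8, 26.8 and 29.2 FPKM as lowest, median and highest in threat 24 h, against 24.2, 19.6, 22.5, 23.8 and 22.0 FPKM in place 24 h. Only threat library 4 fell inside the place range, and the difference was 0.23 ± 0.08 (SE; limma adjusted p = 0.9998). Fosl2 averaged 14.8 ± 1.54 FPKM in threat 24 h and 12.3 ± 1.92 FPKM in place 24 h (SD, n = 6 and 5; limma adjusted p = 0.9998). Neither passed the adjusted threshold.

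Egr1, a zinc-finger factor induced by activity, averaged 30.8 ± 10.5 FPKM in threat 24 h and 28.6 ± 6.03 FPKM in place 24 h. Nr4a1, an orphan nuclear receptor, averaged 19.4 ± 6.05 FPKM in threat 24 h and 16.9 ± 2.12 FPKM in place 24 h. Npas4, a factor confined to neurons and induced by calcium entry, averaged 1.17 ± 0.892 FPKM in threat 24 h and 1.30 ± 0.587 FPKM in place 24 h. For each of these 3 genes the groups overlapped and the standard error, 0.21 to 0.28, was larger than the difference.

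Effector genes that act at synapses gave no call either. Of 29 activity-regulated effectors tested (33 in the list), 0 were called, 1 had an unadjusted p under 0.05, which was Sgk1, and 21 had a higher mean in threat 24 h (median difference 0.04). Arc, which controls AMPA receptor endocytosis, had 16.1, 30.01 and 42.3 FPKM as lowest, median and highest in threat 24 h, against 22.4, 20.4, 27.3, 25.2 and 27.8 FPKM in place 24 h. Threat libraries lay on both sides of the place range. Bdnf, a neurotrophin, averaged 3.77 ± 1.12 FPKM in threat 24 h and 2.93 ± 0.363 FPKM in place 24 h, a difference of 0.25 ± 0.14 (SE; limma adjusted p = 0.9998). Homer1, a postsynaptic scaffold, averaged 17.5 ± 1.58 FPKM in threat 24 h and 17.1 ± 2.2 FPKM in place 24 h, with an interval of -0.18 to 0.25. Errfi1, a feedback inhibitor of EGF receptor signalling, had 5.75, 6.30 and 6.84 FPKM as lowest, median and highest in threat 24 h, against 7.12, 7.54, 7.83, 6.89 and 6.99 FPKM in place 24 h. Its groups did not overlap (limma adjusted p = 0.9998). Its SD was 0.370 FPKM in threat 24 h and 0.399 FPKM in place 24 h. In other libraries of the same fit it was 1.34 FPKM (threat 1 h), 1.73 FPKM (place 1 h) and 0.262 FPKM (naive).

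Glucocorticoid-responsive genes had lower means in threat 24 h than in place 24 h for all but 3 of 24 tested (27 in the list), though 0 were called. The median difference was -0.10, against -0.002 for all genes, and 3 had an unadjusted p under 0.05: Sgk1, Pdk4 and Gpd1, all lower. Sgk1 (chromosome 1, 25652755 to 25660738) had 11.4, 20.3 and 24.7 FPKM as lowest, median and highest in threat 24 h, against 20.8, 40.9, 32.1, 28.5 and 27.5 FPKM in place 24 h. Place library 1 alone fell among the threat values. The difference was -0.58 ± 0.20 (SE; limma adjusted p = 0.9998), with an interval of -0.99 to -0.18.

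Pdk4, a mitochondrial kinase that shuts down pyruvate dehydrogenase (chromosome 4, 30451701 to 30463752), had 1.34, 1.59 and 2.14 FPKM as lowest, median and highest in threat 24 h, against 2.17, 3.43, 2.36, 2.24 and 1.83 FPKM in place 24 h. Only place library 5 fell inside the threat range (difference -0.37 ± 0.15 SE; limma adjusted p = 0.9998). In naive CA1 Sgk1 averaged 19.4 ± 3.95 FPKM and Pdk4 1.49 ± 0.270 FPKM (SD, n = 9). Threat 24 h against naive gave 0.01 for Sgk1 and 0.07 for Pdk4, and place 24 h against naive gave 0.59 for Sgk1 (limma adjusted p = 0.05005) and 0.44 for Pdk4 (adjusted p = 0.0623). These comparisons share their place, threat and naive libraries and none passed the threshold. Both genes had higher means at 1 h, a contrast not tested here. Sgk1 averaged 38.4 ± 12.7 FPKM in threat 1 h and 37.2 ± 5.76 FPKM in place 1 h, and Pdk4 averaged 4.25 ± 1.52 FPKM in threat 1 h and 3.41 ± 0.776 FPKM in place 1 h (SD, n = 8 and 6). Fkbp5, the FK506-binding regulator of the glucocorticoid receptor, averaged 12.02 FPKM in threat 24 h and 12.3 FPKM in place 24 h, with an interval of -0.35 to 0.26.

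**Figure D3:**
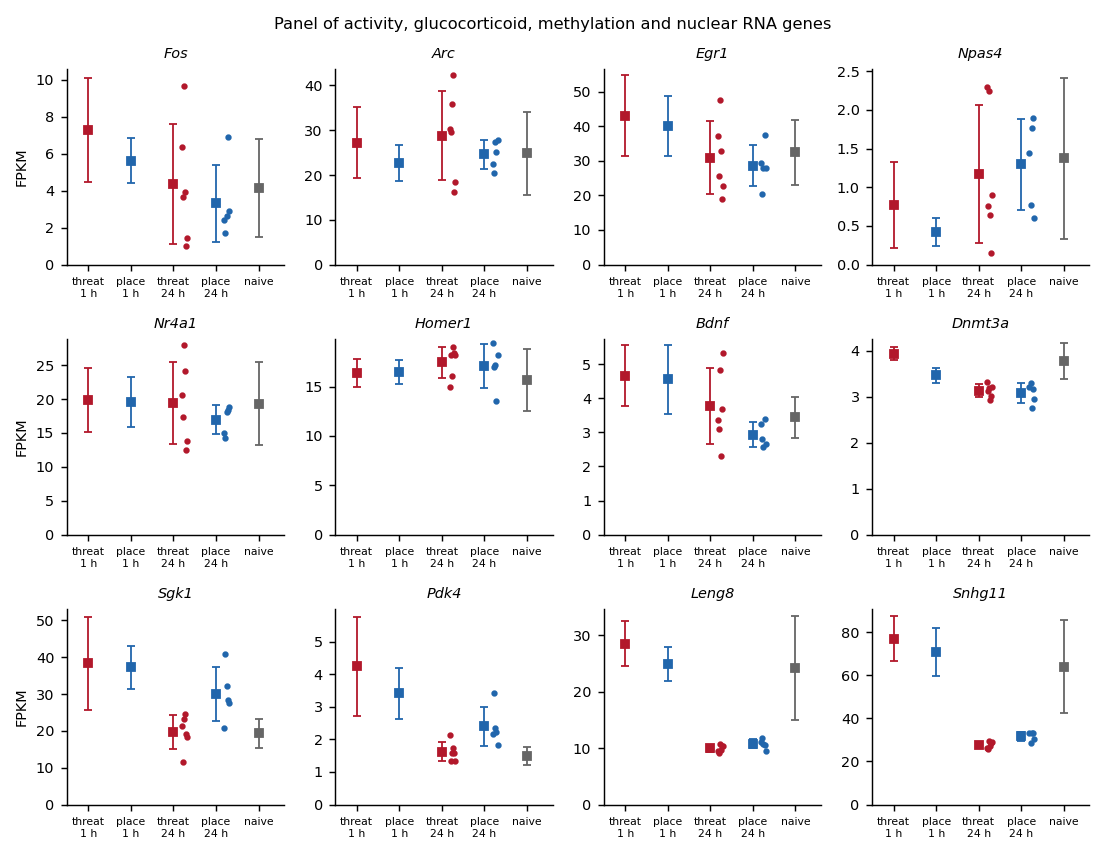
FPKM (vertical axis, from 0) of 12 genes in threat 1 h (n = 8), place 1 h (n = 6), threat 24 h (n = 6), place 24 h (n = 5) and naive (n = 9) CA1; squares and bars are means and SDs, small points are the libraries of 24 h. Sgk1 and Pdk4 have their place 24 h means above their threat 24 h means with overlap of the libraries, and Fos, Arc and Egr1 spread widely within threat 24 h.

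Genes of DNA methylation and histone modification had differences bounded within 1.5-fold on the log2(FPKM + 1) scale for every member tested. That scale understates the folds of low members, such as Ezh2 with means of 0.872 FPKM in threat 24 h and 1.02 FPKM in place 24 h. Of 19 methylation genes tested 0 were called and 0 had an unadjusted p under 0.05, with differences from -0.18 to 0.09. Dnmt3a, a de novo methyltransferase, averaged 3.13 ± 0.145 FPKM in threat 24 h and 3.08 ± 0.219 FPKM in place 24 h, with an interval of -0.08 to 0.13. Dnmt1, the maintenance methyltransferase, averaged 5.01 ± 0.289 FPKM in threat 24 h and 4.63 ± 0.199 FPKM in place 24 h (limma adjusted p = 0.9998). Gadd45a, linked to demethylation, averaged 2.86 ± 0.291 FPKM in threat 24 h and 3.38 ± 0.512 FPKM in place 24 h (limma adjusted p = 0.9998). Of 34 histone modifiers 0 were called or had an unadjusted p under 0.05, and their differences ran from -0.18 to 0.10.

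The nuclear-retained RNAs Leng8 and Snhg11 had lower means at 24 h than at 1 h in both arms, in levels that were not tested here. Leng8 averaged 9.99 ± 0.638 FPKM in threat 24 h and 10.8 ± 0.815 FPKM in place 24 h, against 28.4 ± 4.0 FPKM in threat 1 h and 24.9 ± 3.07 FPKM in place 1 h. Snhg11 averaged 27.6 ± 1.58 FPKM in threat 24 h and 31.6 ± 2.17 FPKM in place 24 h, against 77.0 ± 10.5 FPKM in threat 1 h and 70.8 ± 11.2 FPKM in place 1 h. The naive libraries spread widely, with Leng8 at 24.2 ± 9.18 FPKM (13.9 to 37.9) and Snhg11 at 63.8 ± 21.6 FPKM (37.3 to 97.7). Whether the gap between times follows training or the set of libraries was not tested. Between the arms at 24 h the differences were -0.10 ± 0.18 for Leng8 and -0.19 ± 0.17 for Snhg11 (SE). Of 30 nuclear-retained and splicing-related transcripts 0 were called and 5 had a higher mean in threat 24 h, with a median difference of -0.03.

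Receptor and channel lists had more members with a higher mean in threat 24 h than with a lower one, and none was called. GABA receptor subunits had a higher mean in threat 24 h for 11 of 14 genes (median difference 0.10), and 0 were called or had an unadjusted p under 0.05. Gabrb2, a subunit of many GABA-A receptors, averaged 15.3 ± 1.75 FPKM in threat 24 h and 12.9 ± 1.57 FPKM in place 24 h (SD, n = 6 and 5; limma adjusted p = 0.9998). Voltage-gated channels were higher for 21 of 31 (median 0.07), ionotropic glutamate receptors for 14 of 17 (0.03), postsynaptic scaffolds and plasticity kinases for 20 of 30 (0.02) and neuropeptide precursors for 12 of 19 (0.04), with 0 called in each. Place library 4 had the lowest level of all 11 libraries in the GABA (4.36), channel (3.46), glutamate receptor (3.44) and scaffold (5.26) lists. Without it the glutamate receptor median was -0.009 and the scaffold median -0.05, and the channel median was 0.03. Kcnd3, an A-type potassium channel, averaged 4.34 ± 0.731 FPKM in threat 24 h and 3.56 ± 0.498 FPKM in place 24 h (limma adjusted p = 0.9998).

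Housekeeping and stress lists had medians close to 0. Oxidative phosphorylation had 34 of 54 subunits higher (median 0.02, range -0.08 to 0.07), circadian clock genes 9 of 18 (0.01), heat shock and unfolded protein response genes 15 of 27 (0.003) and cholesterol synthesis 8 of 22 (-0.01). Cytosolic ribosomal protein genes had a higher mean in threat 24 h for 6 of 59 (median -0.06), with 0 called and 2 at an unadjusted p under 0.05. One of those, Rps2, had 23.3, 25.9 and 33.7 FPKM as lowest, median and highest in threat 24 h, against 34.3, 38.2, 36.0, 33.4 and 32.1 FPKM in place 24 h. Ribosomal protein genes have many processed pseudogenes, so their FPKM can include reads from copies. Collagen and matrix genes were higher for 9 of 22 (median -0.03) and cytokine and innate immunity genes for 4 of 16 (-0.05); C3, the central complement component, averaged 4.45 ± 0.669 FPKM in threat 24 h and 5.85 ± 1.10 FPKM in place 24 h (limma adjusted p = 0.9998).

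Markers of oligodendrocytes and of their precursors had lower means in threat 24 h than in place 24 h for every member tested, and none was called. This held for 14 of 14 oligodendrocyte markers (median difference -0.27, range -0.42 to -0.16) and 9 of 9 precursor markers (median -0.11). With 1 library left out the oligodendrocyte median ran from -0.40 without place library 3 to -0.16 without place library 4, and it was also over 1.5 times smaller without threat library 5. Of these, 4 oligodendrocyte markers, with Mbp, Mobp and Mog among them, and 1 member of the precursor list (Bcas1) had an unadjusted p under 0.05. Mbp, myelin basic protein (chromosome 18), had 702, 1048 and 1282 FPKM as lowest, median and highest in threat 24 h, against 1277, 1542, 869, 1926 and 1248 FPKM in place 24 h. Threat libraries 5 and 6 were the lowest of threat 24 h and place library 3 the lowest of place 24 h, and the groups overlapped. The difference was -0.42 ± 0.17 (SE; limma adjusted p = 0.9998). In bulk tissue, fewer cells of a type and less RNA per cell cannot be told apart.

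Averaged over the list, log2(FPKM + 1) of oligodendrocyte markers ran from 5.73 to 6.61 in threat 24 h and from 5.96 to 6.88 in place 24 h. Microglial markers had a higher mean in threat 24 h for 1 of 15 (median -0.10, over 1.5 times smaller without threat library 1 and -0.05 without place library 2), with list levels of 3.56 to 3.77 in threat 24 h and 3.71 to 3.96 in place 24 h. Itgam, the integrin alpha M chain, averaged 3.02 ± 0.691 FPKM in threat 24 h and 4.25 ± 0.854 FPKM in place 24 h (SD, n = 6 and 5; limma adjusted p = 0.9998). Astrocyte markers were higher for 4 of 14 (median -0.04) and endothelial and mural markers for 2 of 15 (-0.06). Interneuron markers were higher for 8 of 16 (0.002), with Gad1, a GABA-synthesising enzyme, at 52.7 to 60.4 FPKM in threat 24 h and 51.9 to 58.0 FPKM in place 24 h.

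Markers of neighbouring fields and of tissue outside the hippocampus gave no call. CA1 markers were higher in threat 24 h for 3 of 10 (median -0.03), CA2 and CA3 markers for 6 of 10 (0.03) and dentate granule markers for 7 of 8 (0.14). Dentate levels were 3.06 and 3.29 in threat libraries 5 and 6, against 2.17 to 2.67 in the other 9, and the median was -0.04 without threat library 6 and -0.005 without place library 4. All 5 choroid plexus markers tested had a lower mean in threat 24 h (median -0.38, and -0.20 without place library 5). Ttr, the transthyretin of choroid plexus epithelium, had 4.39, 18.3 and 72.7 FPKM as lowest, median and highest in threat 24 h, against 4.20, 86.4, 101, 3.05 and 162 FPKM in place 24 h. Such a spread left an interval of -3.41 to 2.30. Thalamic markers were higher for 2 of 9 (-0.07), meningeal markers for 5 of 13 (-0.04) and blood markers for 2 of 3 (0.02). In all 31 lists the library levels of the groups overlapped.

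**Figure D4:**
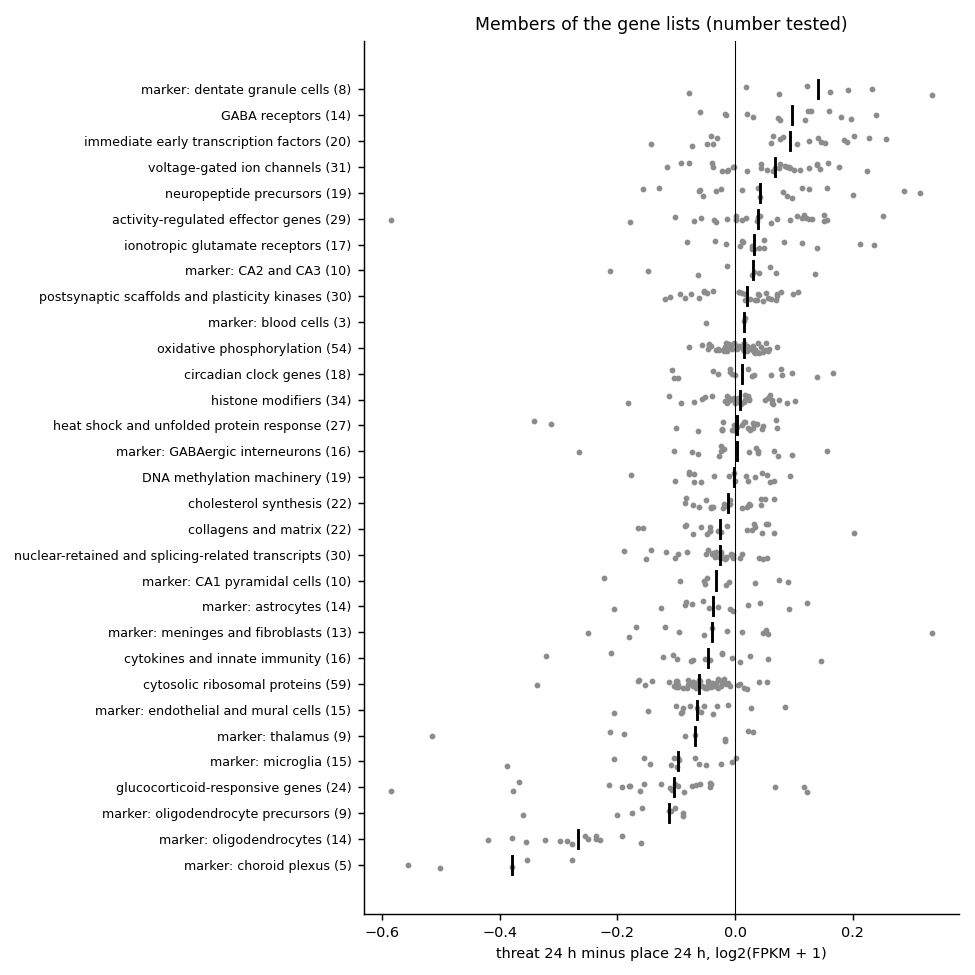
Difference between threat 24 h and place 24 h on the log2(FPKM + 1) scale (horizontal axis) for each tested member of 31 gene lists (rows, ordered by median), with the median as a black bar and the number tested in brackets. Medians of 26 lists lie within 0.1 of 0, and the oligodendrocyte, precursor and choroid plexus lists lie wholly below 0.

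Along the largest axis of variation among the 11 libraries, threat and place libraries were interleaved. The first principal component held 39.05% of the variance and the second 13.8%. On the second, 4 of the 6 threat libraries lay below every place library and the other 2 among them. Place library 4 (-20.8), threat library 3 (-14.4) and threat library 1 (-9.84) lay at one end of the first component, and threat library 5 (13.8), place library 3 (11.9) and threat library 6 (9.49) at the other. The genes with the strongest weights, picked after their values were seen, included Fos and the phosphatase Dusp1 on the side of place library 4, and the choroid plexus gene Ttr and the CA1 marker Fibcd1 on the other side. Ttr had the largest weight, 0.109, against -0.061 for Fos, -0.048 for Dusp1 and 0.056 for Fibcd1. Dusp1 stood at 15.4, 18.4 and 16.8 FPKM in threat library 1, threat library 3 and place library 4, and at 4.72 to 11.6 FPKM in the other libraries. The CA1 marker level was 3.99 in place library 4 and 4.48 to 4.59 in the other place libraries, and 4.15 to 4.57 in threat 24 h. Place library 4 also had the highest oligodendrocyte level, 6.88.

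Results were recomputed without the pair farthest out along this component, which lie at the same end. Without place library 4 and threat library 3, an alternative chosen after seeing the data, 0 genes were called (252 at an unadjusted limma p under 0.05), Sgk1 differed by -0.65, the glucocorticoid list's median was -0.09 and the oligodendrocyte median was -0.22. With CA1 and oligodendrocyte marker levels as covariates, also chosen after seeing the data, 0 genes were called (296 at an unadjusted p under 0.05), Sgk1 differed by -0.43 and the immediate early median was 0.18. Mbp differed by -0.12 and the oligodendrocyte median was 0.02, as follows from the fit, since these markers make up the covariate. The dentate median was 0.06 and -0.10 in these 2 settings, so its direction differed between settings.

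**Figure D5:**
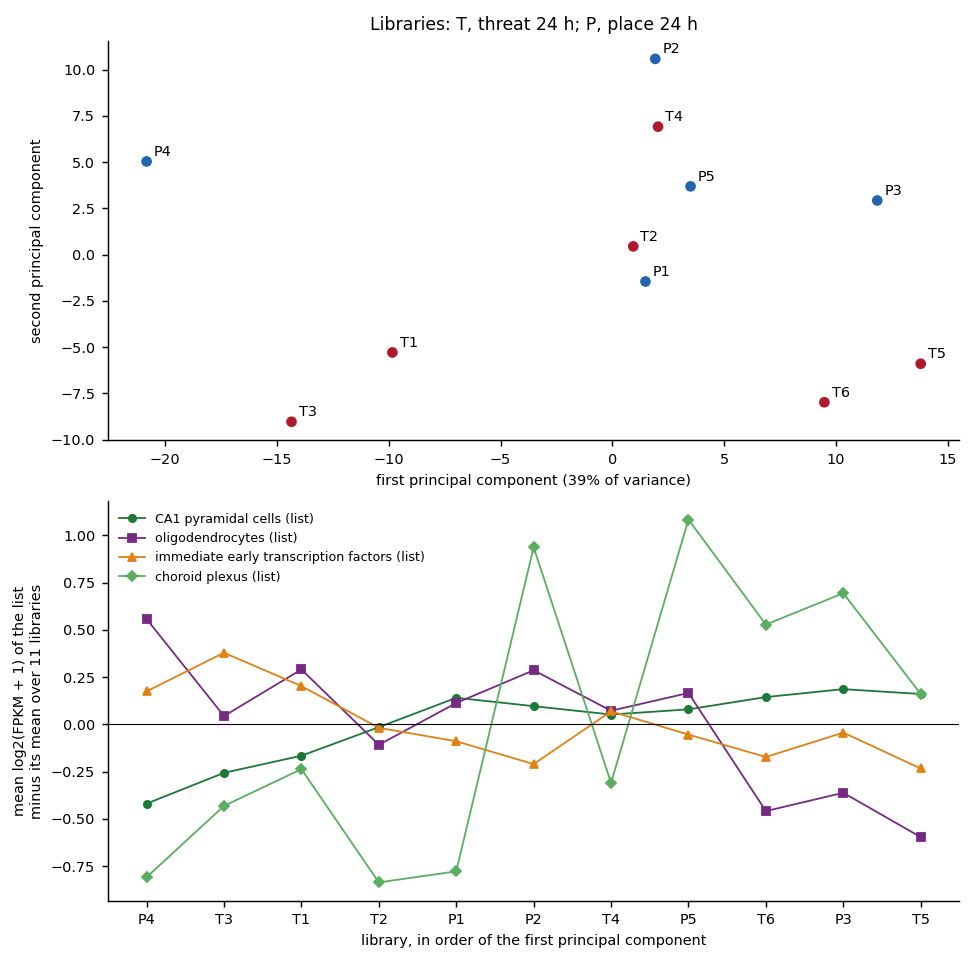
Top, the 6 threat 24 h (T, red) and 5 place 24 h (P, blue) libraries on the first 2 principal components of log2(FPKM + 1); bottom, mean list level of CA1, oligodendrocyte and choroid plexus markers and of immediate early genes minus its mean over the 11 libraries (vertical axis, log2 units), with libraries ordered along the first component. T and P overlap on both components, with 4 T libraries (T1, T3, T5 and T6) below every P library on the second, and the 3 libraries with the lowest CA1 levels (P4, T3 and T1) are those with the 3 highest immediate early levels.

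The effect of threat against place training at 24 h was also set against the same effect at 1 h. The difference between both effects was called for 0 of 13153 genes (0%); 63 genes were higher (0.479%) and 297 lower (2.26%) at an unadjusted limma p under 0.05, 2.74% together, and the lowest adjusted p was 0.9997. The effects share no library, and across genes, which are not independent replicates, their Pearson correlation was 0.075. Of all 13153 genes, 2.9% had an unadjusted limma p under 0.05 at 24 h. Both p-values of a gene use the same estimate of its spread, so they are not independent. At 1 h, 560 genes had an unadjusted limma p under 0.05. Of these, 19 also had one at 24 h in the same direction and 3 in the opposite direction. Nos1 and Dusp12 were among those 19, with 1 h differences of 0.17 and 0.15 beside 0.28 and 0.23 at 24 h.

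The lowest p-values for a change of the effect with time belonged to Zbtb8os-ps1, Mettl1 and Atpaf2. Mettl1, a tRNA methyltransferase, averaged 2.91 ± 0.276 FPKM in threat 24 h and 2.41 ± 0.402 FPKM in place 24 h, and 2.38 ± 0.207 FPKM in threat 1 h and 2.71 ± 0.151 FPKM in place 1 h. The direction was opposite at the 2 times (change 0.34 ± 0.09 SE; limma adjusted p = 0.9997). Atpaf2, an assembly factor of ATP synthase, averaged 7.10 ± 0.402 FPKM in threat 24 h and 7.44 ± 0.213 FPKM in place 24 h, and 7.72 ± 0.360 FPKM in threat 1 h and 6.74 ± 0.566 FPKM in place 1 h. For Pdk4 the change was -0.59 ± 0.20 (SE; limma adjusted p = 0.9997).

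DNA methylation was a second readout of the same training arms at 24 h, from 3 threat, 4 place and 3 naive libraries of DNA bound by a methyl-binding domain protein and 3 input libraries of DNA that was not captured. Such capture recovers fragments that hold methylated CG, and unmethylated fragments are left behind. The upstream sequences of 3 genes are shown: Npas4 and Nr4a1 from the activity panel, and Nos1 from the genes of lowest p in RNA. Their captured levels, given below, are averages over bins within 2 kb of the gene start. The sequences cover at most a small part of that span, so their CG content is not that of the measured region. They are the 250 bases before the RefSeq start in GRCr8, read 5′ to 3′ on the gene's strand, with each CG in capitals; GRCr8 is not the build of the deposited positions (rn5), and the starts may differ.

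Npas4 (GRCr8 chr1:211716103-211716352, minus strand): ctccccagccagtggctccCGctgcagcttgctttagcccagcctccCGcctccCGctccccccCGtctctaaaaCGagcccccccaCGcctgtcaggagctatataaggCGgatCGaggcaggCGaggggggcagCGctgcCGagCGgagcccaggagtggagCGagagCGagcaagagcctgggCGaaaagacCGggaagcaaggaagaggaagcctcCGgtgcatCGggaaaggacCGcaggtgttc

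Nr4a1 (GRCr8 chr7:134259888-134260137, plus strand): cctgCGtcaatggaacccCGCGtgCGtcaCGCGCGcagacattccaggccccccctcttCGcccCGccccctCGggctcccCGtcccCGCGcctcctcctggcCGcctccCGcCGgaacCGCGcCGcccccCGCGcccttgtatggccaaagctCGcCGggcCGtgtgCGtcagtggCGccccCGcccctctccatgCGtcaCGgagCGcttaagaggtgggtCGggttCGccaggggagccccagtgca

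Nos1 (GRCr8 chr12:44371838-44372087, minus strand): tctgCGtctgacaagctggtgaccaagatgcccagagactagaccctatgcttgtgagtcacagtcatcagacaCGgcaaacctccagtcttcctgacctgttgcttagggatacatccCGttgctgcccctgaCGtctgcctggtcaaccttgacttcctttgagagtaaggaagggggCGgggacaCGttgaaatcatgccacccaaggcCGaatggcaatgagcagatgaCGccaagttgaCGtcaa

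CG reads the same on both strands. Npas4 holds 19 CG, Nr4a1 32 and Nos1 9. Of 33469 RefSeq promoter windows of that length, 18.4% hold at least 19, 4.13% at least 32 and 38.5% at least 9. Sequences were matched for 64 of the 90 named genes.

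Captured signal near the start was high for Nos1 and low for Npas4 and Nr4a1 in both arms. RPKM, reads scaled to bin length and to the reads of the library, is averaged here over bins of 500 nt within 2 kb of the gene start. Npas4 had 0.0689, 0.0838 and 0.117 RPKM in threat 24 h, against 0.112, 0.144, 0.130 and 0.0710 RPKM in place 24 h, with an input mean of 0.293. Nr4a1 had 0.193, 0.124 and 0.128 RPKM in threat 24 h, against 0.182, 0.155, 0.228 and 0.128 RPKM in place 24 h, with an input mean of 0.255. Nos1 had 0.948, 0.871 and 0.689 RPKM in threat 24 h, against 0.769, 0.649, 0.665 and 0.606 RPKM in place 24 h, with an input mean of 0.296. All captured values of Npas4 and Nr4a1 were below input and all of Nos1 were above it. Low signal near the start was not particular to Npas4 and Nr4a1. The mean captured level there was below input for all 8 panel genes tested and for 13 of 16 lowest-p genes tested. Threat library 3 of Nos1 lay within the place range (difference 0.23 ± 0.10 SE on the log2(RPKM + 0.25) scale; limma adjusted p = 0.245).

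Over gene bodies, captured DNA differed between threat 24 h and place 24 h for 2 of 12470 genes (0.016%), both higher in threat. Shisa2, of a family that restrains FGF and Wnt receptors, had 0.600, 0.567 and 0.562 RPKM in threat 24 h, against 0.435, 0.449, 0.414 and 0.429 RPKM in place 24 h and an input mean of 0.296. Noc4l, a nucleolar protein of small-subunit assembly, had 0.686, 0.654 and 0.613 RPKM in threat 24 h, against 0.472, 0.469, 0.420 and 0.429 RPKM in place 24 h and an input mean of 0.344. The groups did not overlap for either, with differences of 0.28 ± 0.03 and 0.37 ± 0.04 (SE; limma adjusted p = 0.0494 for both). Both genes were picked for low p in these same libraries, which favours such separation. How many of the 12470 genes separate the groups was not counted, so the lack of overlap adds no weight to the calls. With any 1 library left out 0 or 1 gene was called, and 0 were called with a pseudocount of 0.1, with quantile normalization or with a replicate block, so both calls depend on those settings. Their mRNA did not differ by more than its error: Shisa2 averaged 0.992 ± 0.343 FPKM in threat 24 h and 0.904 ± 0.178 FPKM in place 24 h, and Noc4l 6.67 ± 0.564 FPKM in threat 24 h and 6.29 ± 0.690 FPKM in place 24 h (SD, n = 6 and 5).

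At an unadjusted limma p under 0.05, 2441 genes were higher (19.6%) and 1148 lower (9.21%) over gene bodies in threat 24 h. Adjusted p rose slowly past the threshold. Samhd1 had an unadjusted limma p of 0.00331 and an adjusted p of 0.0782, and Fam82b had 0.00757 and 0.0862. The small number of calls at 0.05 therefore does not show that few genes differed. Equally, the shares at an unadjusted p do not show that many did, and what raised them was not tested. With quantile normalization 0 genes were called. The median captured level over gene bodies was 0.328 RPKM, against 0.297 RPKM in input, so the captured level was close to the input level for the median gene. Of the 20 genes of lowest p in RNA, 0 were called in captured DNA, and their differences ran from -0.14 to 0.16. Of the 12 panel genes 0 were called, with differences from -0.12 for Snhg11 to 0.21 for Nr4a1. Sgk1 averaged 0.134 ± 0.0203 RPKM in threat 24 h and 0.139 ± 0.0441 RPKM in place 24 h (SD, n = 3 and 4), an interval of -0.19 to 0.17. Within 2 kb of gene starts 33 of 9901 genes were called (0.333%), with 22 higher (0.222%) and 11 lower (0.111%) in threat 24 h. At an unadjusted limma p under 0.05 these shares were 7.37% higher and 6.13% lower. There the captured median, 0.206 RPKM, was below the input median of 0.281 RPKM.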

How the data were processed

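RNA was polyA-selected and sequenced in directional libraries from CA1 tissue with an RNA integrity number above 8, per the labels' protocols. The deposited RNA values are FPKM per gene, and the deposited captured-DNA values are RPKM per 500 nt bin; the tools TopHat 1.4.0, Bowtie, DESeq2 and edgeR and the builds mm10 and rn5 stand in the submitters' processing notes with no role given. Although GRCm38, a mouse build, stands in the titles of the deposited tables, the gene identifiers are rat Ensembl ones and the chromosomes end where those of rn5 do, so positions were taken as rn5. No column of another sample was present (0).

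FPKM were taken as log2(FPKM + 1) for the 13153 genes that reached 1 FPKM in 5 or more of the 34 libraries. limma 3.58.1 (R 4.3.3) with an intensity trend was fitted to all RNA libraries as 5 groups, leaving 29 residual degrees of freedom, with Benjamini-Hochberg adjustment over all genes at 0.05. Captured RPKM were averaged over each gene's bins as log2(RPKM + 0.25) and fitted the same way in 10 libraries, for genes with a mean of at least 0.1 RPKM; 3 input libraries served as background. The files give no read counts for RNA, so relative depth was read from the steps of low values. Captured and input libraries held 42.2 to 59.5 M reads in full bins. Tables used Python 3.11.15 and pandas 2.3.3, figures matplotlib 3.10.9. The code was checked on simulated data.

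The members and the 31 lists were chosen with earlier results of these data known. Named genes were the 10 of lowest p in each direction, up to 2 of lowest p in each list, a panel of 12 genes, and the genes called or the 3 of lowest p in the other comparisons; Gpd1, Fkbp5, Mobp, Mog, Gad1, Ttr, Dusp1 and the genes over 0.5 were named after their values were seen. Of 690 list entries 686 were found. Alternatives varied the pseudocount, filter, scaling, replicate block, weights and libraries.

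Same-numbered threat 24 h and place 24 h libraries were checked for pairing. Their deviations from the group means correlated at -0.06, 0.16, -0.50, -0.11 and 0.21, so the numbers were not taken as pairs.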

Additional observations from a re-analysis of the deposited data

Results flagged for a closer look

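Among 242 groups of 5 or 6 values, 14 held a library far from the others, by a gap over 0.710 of the range for 5 libraries and 0.625 for 6. Chance gives about 1 in 20 groups. Place library 4 gave 5 of them. In it Fos stood at 6.90 FPKM, against 2.92 FPKM in the nearest place library. The mean log2 level there was 3.44 for ionotropic glutamate receptors (nearest 3.68), 5.26 for postsynaptic scaffolds and plasticity kinases (5.49), 3.99 for CA1 markers (4.48) and 2.17 for dentate granule markers (2.55).

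In threat library 3 Bag3 stood at 3.22 FPKM (nearest 4.28) and Srsf6, a splicing factor, at 10.3 FPKM (13.6). Creb1, an activity-regulated transcription factor, was 3.13 FPKM in threat library 1 (2.83). Npy, neuropeptide Y, was 4.37 FPKM in threat library 5 (5.35). Zic1, a zinc-finger factor, was 1.73 FPKM in threat library 4 (1.12). Clk2, a splicing kinase, was 5.65 FPKM in place library 5 (6.95), and Dcn, the matrix proteoglycan decorin, was 17.5 FPKM in place library 3 (9.49). The mean log2 level of microglial markers was 3.56 in threat library 1 (3.69) and that of endothelial and mural markers 2.59 in threat library 5 (2.75).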

How the results depend on the processing

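Threat 24 h against place 24 h gave 0 called RNA genes in all 22 alternatives by limma, with 245 to 716 genes at an unadjusted p under 0.05 and a lowest adjusted p of 0.154, reached with array weights. The change of the effect from 1 h to 24 h also gave 0 in all 22. With a replicate block 0 genes were called and 353 had an unadjusted p under 0.05. Of 1950 alternative values of the 90 named genes, 1932 kept their direction. The other 18, in 7 genes, reversed: Hbb-b1 was 0.026 with array weights and 0.023 without the 2 libraries farthest along the first component, and Homer1 was -0.017 without them. Leaving out 1 library at a time gave -0.0077 to 0.041 for Dnmt3a, -0.0705 to 0.19 for Egr1, -0.061 to 0.43 for Fos, -0.15 to 0.22 for Hbb, -0.23 to 0.16 for Hbb-b1, -0.039 to 0.084 for Homer1 and -0.28 to 0.019 for Npas4. Of 682 list medians, 67 in 19 lists changed sign. Captured DNA gave 2 called genes over gene bodies, 0 with a pseudocount of 0.1, 0 with quantile normalization, 0 with a replicate block, 33 within 2 kb of gene starts and 0 to 1 with a library left out; the cause was not tested. Low FPKM values limit the folds of genes near 1 FPKM.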
